A study of Saccharomyces cerevisiae with 8 samples.

Results

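Transfer RNA (tRNA) genes were followed in polyadenylated RNA from budding yeast. The members were the rows of the deposited count table whose identifier opens with t, an amino acid letter and an anticodon in brackets, with at least 10 counts summed over all 8 libraries. This held for 243 of the 299 tRNA rows in a table of 9014 features: 223 nuclear genes and 20 genes of the mitochondrial genome. Copies with the same anticodon were summed into 40 families, written here as E(UUC) for glutamate with anticodon UUC, and the families into 20 amino acid groups.

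The strains were air1 rrp6 (air1::bleR rrp6::LEU2), air2 rrp6 (air2::bleR rrp6::LEU2), rrp6 (rrp6::LEU2) and the wild type BY4742 (WT), with 2 SOLiD libraries each. All carried MAT-alpha his3D1 leu2D0 lys2D0 ura3D0 and were grown from a colony in rich medium (YPD, 30 °C) until the optical density was near 2.5. The rrp6 disruption was shared by air1 rrp6, air2 rrp6 and rrp6, and each of these also carried LEU2, so in a comparison with WT the loss of RRP6 and the presence of LEU2 cannot be told apart. The labels do not say whether duplicates came from separate cultures, so the spread behind each p-value may be only technical.

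RRP6 encodes a nuclear exonuclease of the RNA exosome. Air1 and Air2 are RNA-binding subunits of TRAMP, a polyadenylation complex that tags defective nuclear RNAs with a short run of adenosines and passes them to the exosome. Transfer RNAs are made by RNA polymerase III, trimmed at both ends, in some families spliced, and heavily modified. A mature tRNA has no long poly(A) tail, and yeast initiator methionine tRNA that lacks a base modification is a known target of TRAMP. The question of the series is how Air1 and Air2 set the choice of substrates by TRAMP. Only tRNA that was bound to poly(U) sepharose was sequenced here, and the counts do not show the length of a tail or whether a molecule was mature. A level is a share of its library, so less tailed tRNA and more of other tailed RNA cannot be told apart.

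The genes on which the results turn are shown first, 5′ to 3′, as the mature tRNA gene sequence from RefSeq (build R64) with the anticodon in capitals and T for U. E(UUC) held the most tRNA counts. Of its 14 nuclear genes, 13 share the sequence of tE(UUC)B, and tE(UUC)M differs from it by T67G, counted from the 5′ end. The E(CUC) gene is shown beside them because it carries the same amino acid at a far lower level.
tE(UUC)B, chrII:645167-645238, plus strand: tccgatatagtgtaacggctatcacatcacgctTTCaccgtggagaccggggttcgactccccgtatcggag
tE(UUC)M, chrXIII:290801-290872, plus strand: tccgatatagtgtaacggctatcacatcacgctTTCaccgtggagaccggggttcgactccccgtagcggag
tE(CUC)D, chrIV:1017207-1017278, minus strand: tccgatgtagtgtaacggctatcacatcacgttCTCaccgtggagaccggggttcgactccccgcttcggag

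The glutamine genes came next in level. CDC65, listed as tQ(CUG)M, is the only nuclear gene with anticodon CUG. tQ(UUG)H has a sequence shared by 6 genes of the Q(UUG) family, and tQ(UUG)B held most of the nuclear counts of that family.
tQ(CUG)M, chrXIII:808246-808317, minus strand: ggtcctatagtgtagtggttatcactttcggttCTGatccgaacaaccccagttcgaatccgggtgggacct
tQ(UUG)H, chrVIII:134321-134392, plus strand: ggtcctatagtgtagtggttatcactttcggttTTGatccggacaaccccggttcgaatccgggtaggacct
tQ(UUG)B, chrII:350827-350898, plus strand: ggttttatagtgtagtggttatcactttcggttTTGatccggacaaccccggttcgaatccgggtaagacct

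The glycine and valine families that passed a test, and the initiator methionine tRNA, are shown by a gene each. SUF16, listed as tG(GCC)C, stands for 16 genes of the same sequence, tV(AAC)H for 13 of 14 and IMT1, listed as tM(CAU)O1, for 5.
tG(GCC)C, chrIII:142701-142771, minus strand: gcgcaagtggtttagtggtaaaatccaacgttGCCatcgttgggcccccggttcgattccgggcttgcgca
tV(AAC)H, chrVIII:85298-85371, minus strand: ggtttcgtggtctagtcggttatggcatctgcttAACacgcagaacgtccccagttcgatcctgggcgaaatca
tM(CAU)O1, chrXV:710201-710272, plus strand: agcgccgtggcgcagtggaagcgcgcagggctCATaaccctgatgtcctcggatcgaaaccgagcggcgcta

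These genes differ in few bases. tE(CUC)D differs from tE(UUC)B by A7G, C32T, T34C, T65C and A66T, of which T34C is in the anticodon. tQ(CUG)M differs from tQ(UUG)H by T34C, G42A, G51A and A66G, and tQ(UUG)B differs from tQ(UUG)H by C4T, C5T and G67A. In the acceptor stem, the 7 base pairs that join the ends of a tRNA, tE(UUC)B has 7 Watson-Crick pairs. In tE(UUC)M position 5 is A and position 67 is G, which do not pair, and in tE(CUC)D T stands at both positions 6 and 66. tQ(UUG)H, tG(GCC)C and tM(CAU)O1 also have 7 Watson-Crick pairs. tQ(CUG)M, tQ(UUG)B and tV(AAC)H have 6 and a G opposite T.

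The shallowest library was WT replicate 1 with 13787609 counts and the deepest WT replicate 2 with 124620247, and 51.7 to 82.3% of each library lay in the 25 features of the ribosomal DNA (rDNA). The disrupted genes followed the labels: RRP6 had 19 to 51 counts in the 6 libraries without it against 377 and 2131 in WT, AIR1 had 7 and 2 counts in air1 rrp6, AIR2 had 34 and 21 in air2 rrp6, and LEU2 had 0 in both WT libraries.

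Nuclear tRNA was a small part of every library, and WT replicate 2 had the most of it. As a share of the counts outside rDNA and mitochondrial features, it was 0.138 and 0.0396% in the air1 rrp6 libraries, 0.0778 and 0.0539% in air2 rrp6, 0.0639 and 0.175% in rrp6, and 0.0578 and 0.361% in WT. The means were 0.0890% ± 0.070 in air1 rrp6, 0.0659% ± 0.017 in air2 rrp6, 0.119% ± 0.078 in rrp6 and 0.209% ± 0.21 in WT (SD, n = 2 each). Duplicates were 3.49-fold apart in air1 rrp6, 1.44-fold in air2 rrp6, 2.73-fold in rrp6 and 6.24-fold in WT, so the strain means lie within the spread of the WT duplicates. No strain's libraries stood clear of WT replicate 1 and WT replicate 2 together, and with 2 libraries a strain the smallest p of a two-sided exact permutation test is 0.33.

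Within strains, the tRNA share moved with the rDNA share of the libraries. Between strains it did not always do so. WT replicate 1, at 66.9% rDNA, had a tRNA share of 0.0578%, below the 0.0778% of air2 rrp6 replicate 1, at 57.1% rDNA. The rDNA share was 70.8 and 51.7% in air1 rrp6, 57.1 and 55.1% in air2 rrp6, 57.0 and 68.9% in rrp6, and 66.9 and 82.3% in WT. In each of the 4 strains the duplicate with more rDNA had the higher tRNA share. In that duplicate 21 of 36 tested families were higher in air1 rrp6, 23 in air2 rrp6, 32 in rrp6 and 29 in WT, where 51.3, 46.4, 53.6 and 52.6% of all tested features were. The part of the rDNA content in the tRNA values was not tested beyond the covariate model given below.

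**Figure D1:**
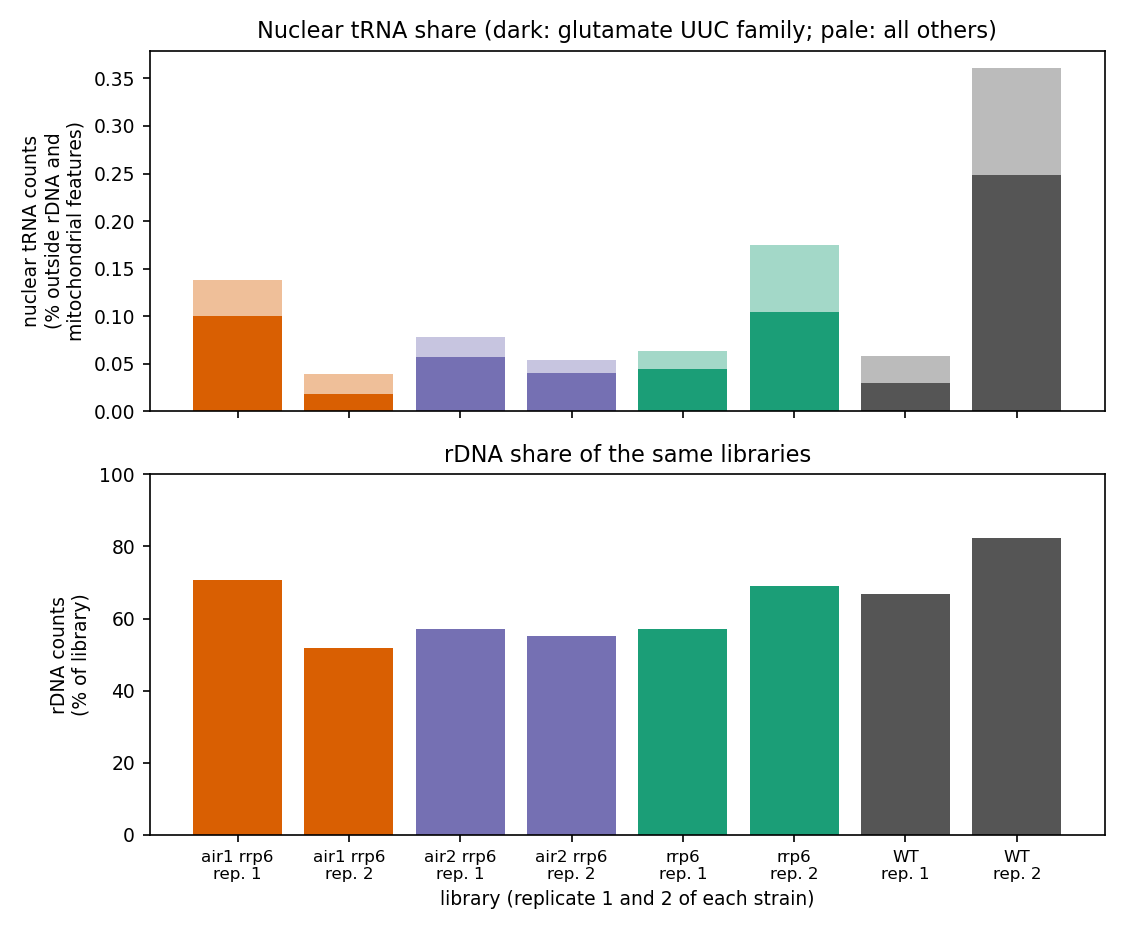
Nuclear tRNA counts as a percentage of counts outside rDNA and mitochondrial features (top, bars stacked from E(UUC) in the dark shade and all other families in the pale shade) and rDNA counts as a percentage of the library (bottom), for replicates 1 and 2 of each strain. WT replicate 2 is highest in both panels, at 0.361% tRNA and 82.3% rDNA.

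A glutamate family outweighed all others. Nuclear E(UUC) genes held 72.6 and 45.2% of the nuclear tRNA counts in air1 rrp6, 73.7 and 74.2% in air2 rrp6, 70.3 and 59.8% in rrp6, and 52.2 and 68.7% in WT. In CPM, counts per 1000000 of the library after scaling by trimmed mean of M-values (TMM), the family had 336 and 55.9 in air1 rrp6, 187 and 128 in air2 rrp6, 154 and 337 in rrp6, and 106 and 856 in WT. All other libraries lay between WT replicate 1 and WT replicate 2, except air1 rrp6 replicate 2, which was below both. The E(CUC) genes, which also carry glutamate, stayed between 2.51 and 5.55 CPM in all 8 libraries.

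Glutamine tRNA came second, and mostly from the CDC65 gene. Q(CUG) had 65.8 and 24.1 CPM in air1 rrp6, 21.0 and 15.9 in air2 rrp6, 18.4 and 128 in rrp6, and 29.2 and 145 in WT. Both air2 rrp6 libraries were below both WT libraries, while the air1 rrp6 and rrp6 libraries overlapped WT. Q(UUG) was steadier, at 16.8 and 7.60 CPM in air1 rrp6, 17.9 and 8.15 in air2 rrp6, 16.8 and 12.2 in rrp6, and 23.8 and 20.9 in WT. Every library without RRP6 had less Q(UUG) than either WT library.

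Among the other families of high level, P(UGG), a proline family with introns, had 8.91 and 4.91 CPM in air1 rrp6, 5.44 and 3.07 in air2 rrp6, 1.70 and 19.2 in rrp6, and 3.87 and 72.0 in WT. G(CCC), a glycine family of 2 genes, had 0.810 and 3.48 CPM in air1 rrp6, 0.449 and 1.09 in air2 rrp6, 0.576 and 9.82 in rrp6, and 1.29 and 21.2 in WT. In both families replicate 2 of rrp6 and replicate 2 of WT were far above the other libraries. D(GUC), the aspartate family, had 17.5 and 8.35 CPM in air1 rrp6, 19.6 and 6.45 in air2 rrp6, 15.0 and 20.1 in rrp6, and 10.6 and 19.5 in WT, with no order among the strains.

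The number of genes did not set the order of the families. Over the 34 families with nuclear members, the number of nuclear rows and their mean CPM had a Spearman correlation of 0.22, given as a description, since all families share the libraries. CDC65 is 1 gene with a mean of 55.9 CPM over the 8 libraries, while the 16 G(GCC) genes together had 1.01 CPM and the 14 K(CUU) genes, a lysine family, 0.886 CPM. Of these 34 families, 14 averaged under 1 CPM from their nuclear rows. These levels are not scaled for gene length; the mature sequences shown above are 71 to 74 bases long.

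**Figure D2:**
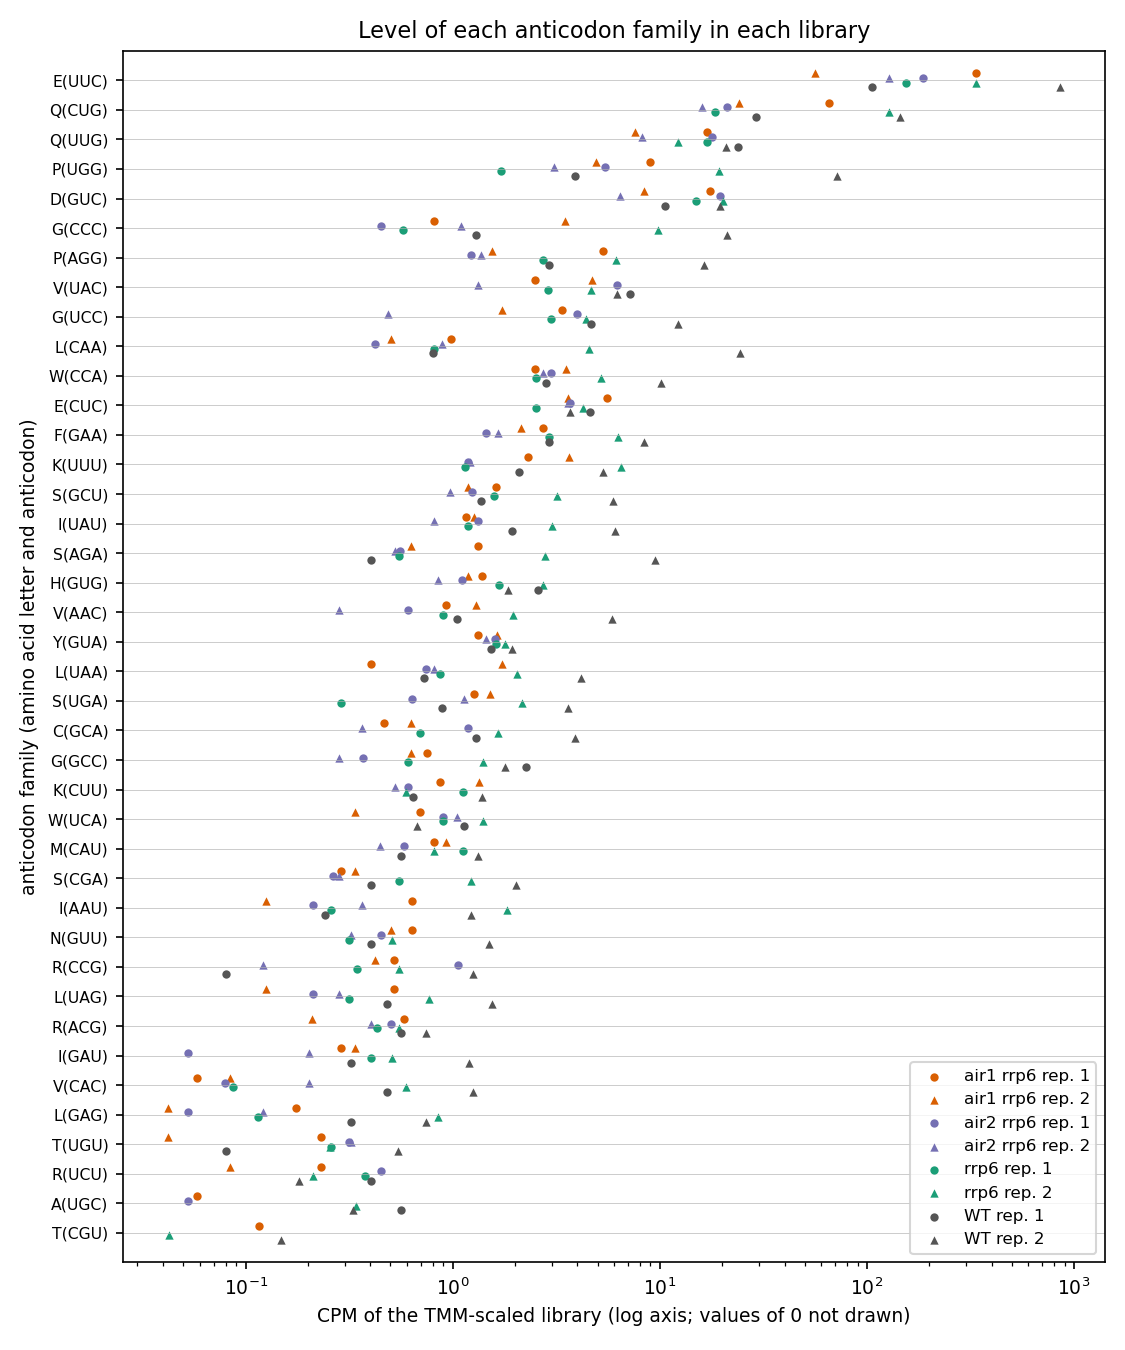
Level of each of the 40 anticodon families in each library, in CPM of the TMM-scaled library on a log axis; circles are replicate 1 and triangles replicate 2 of each strain. E(UUC) lies between 55.9 and 856 CPM, and WT replicate 2 holds the highest value in 26 of the 36 families tested.

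By amino acid, glutamate ranged from 59.5 to 860 CPM over the 8 libraries and glutamine from 24.0 to 166 CPM. Tyrosine was the steadiest group by its duplicates, with a mean of 1.48 ± 0.22 CPM in air1 rrp6, 1.52 ± 0.094 in air2 rrp6, 1.70 ± 0.12 in rrp6 and 1.74 ± 0.29 in WT (SD, n = 2 each). This held for the sum and not for its parts. In every strain the mitochondrial gene was higher in replicate 1 and the nuclear genes in replicate 2. In air2 rrp6 the mitochondrial gene had 1.14 and 0.282 CPM and the nuclear genes 0.449 and 1.17. Methionine was low, at 0.867 ± 0.080 CPM in air1 rrp6, 0.512 ± 0.097 in air2 rrp6, 0.966 ± 0.22 in rrp6 and 0.949 ± 0.54 in WT. The member rows of threonine and alanine, with 86 and 38 counts, were too few to be tested, so 18 of the 20 groups were. Rows of these groups under the minimum, such as those of A(UGC) with 39.0 counts summed and T(AGU) with 34.0, were left out. With no minimum of 10 counts a row, 20 groups were tested. Of the 40 families, 36 were tested. The quasi-likelihood test of edgeR was run on the whole table, and its p-values were adjusted by Benjamini-Hochberg over the 7498 features left with families or the 7480 left with amino acid groups.

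In air2 rrp6 against WT, glycine tRNA G(GCC) and valine tRNA V(AAC) fell, and they were the only families past the threshold of 0.05 in any of the 6 comparisons. Of the features in that comparison, 1.59% were called lower and 8.87% higher. G(GCC) had 0.370 and 0.282 CPM in air2 rrp6 against 2.26 and 1.79 CPM in WT. The air1 rrp6 libraries, at 0.752 and 0.630 CPM, and the rrp6 libraries, at 0.605 and 1.40 CPM, were also below both WT libraries. In air2 rrp6 against WT, G(GCC) fell by 2.58 on the log2 scale (SE 0.56, adjusted p = 0.016 by edgeR), on 14 and 7 counts in air2 rrp6 against 28 and 109 in WT. The adjusted p was 0.031 without WT replicate 1 and 0.038 without WT replicate 2. It was 0.12 with library totals in place of TMM, 0.084 with replicate 1 of air2 rrp6 left out, 0.12 with its replicate 2 left out and 0.22 with the rDNA share as a covariate.

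V(AAC) had 0.608 and 0.282 CPM in air2 rrp6 against 1.05 and 5.84 CPM in WT. It fell by 2.97 on the log2 scale (SE 0.78, adjusted p = 0.040 by edgeR), on 23 and 7 counts in air2 rrp6 against 13 and 355 in WT. Without WT replicate 2 the log2 fold change was -1.22 and the edgeR adjusted p 0.39. The adjusted p ran from 0.0015 to 0.64 over 19 alternatives, and the call was lost in 8 of them. In both families the air2 rrp6 and WT libraries did not overlap. E(UUC) and Q(CUG) had log2 fold changes of -1.62 (SE 1.09, edgeR adjusted p = 0.46) and -2.24 (SE 1.11, adjusted p = 0.30) in this comparison.

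The same comparison had 14 of 36 families lower and 0 higher at an unadjusted p under 0.05, where 6.21% of all features were lower and 16.2% higher. DESeq2 called 8 families lower, where 204 of all 7498 features were lower. With the replicate number as a block edgeR called 7, where 230 of 7498 features were lower. F(GAA), the phenylalanine family, lay just outside the threshold, with 1.45 and 1.65 CPM in air2 rrp6 against 2.90 and 8.36 in WT. Its log2 fold change was -1.90 (SE 0.53, edgeR adjusted p = 0.052), and its adjusted p was 0.019 with the block. Both air2 rrp6 libraries were below both WT libraries in 21 families, or 58.3% of those tested, where 23.0% of all features were.

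In air1 rrp6 against WT no family passed the threshold with edgeR, and DESeq2 called 2 lower, C(GCA) and I(UAU). DESeq2 called 99 of all 7498 features lower. Of the features, edgeR called 0.760% lower and 7.71% higher. At an unadjusted p under 0.05, 9 families were lower and 0 higher, where 4.84% of all features were lower and 15.1% higher. With the replicate block edgeR called 2 families, Q(UUG) and V(CAC), where it called 142 of 7498 features lower. V(CAC), a valine family, had 0.0579 and 0.0840 CPM in air1 rrp6 against 0.483 and 1.25 in WT. Its log2 fold change without the block was -3.61 (SE 1.09, edgeR adjusted p = 0.077). Both air1 rrp6 libraries were below both WT libraries in 10 families, 27.8% of those tested, beside 20.3% of all features.

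In rrp6 against WT no family passed the threshold with edgeR or with DESeq2, where 1.35% of features were called lower and 8.95% higher by edgeR. At an unadjusted p under 0.05, 0 families were lower and 0 higher, where 7.18% of all features were lower and 16.4% higher. E(UUC) had a log2 fold change of -0.97 (SE 1.07, edgeR adjusted p = 0.64) and Q(CUG) of -0.26 (SE 1.06, adjusted p = 0.91). Both rrp6 libraries were below both WT libraries in 5 families, 13.9% of those tested, beside 22.1% of all features.

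How far tRNA lay from WT depended on which libraries were kept. The median log2 fold change of the 36 families was -1.22 in air1 rrp6, -1.72 in air2 rrp6 and -0.83 in rrp6 against WT, where the median over all features was 0.03, 0.03 and 0.02. The value was negative in 34 families in air1 rrp6, 35 in air2 rrp6 and 31 in rrp6. With either WT library left out, 38 families were tested. Without WT replicate 2 the medians were -0.03 in air1 rrp6, -0.65 in air2 rrp6 and 0.41 in rrp6. Without WT replicate 1 they were -1.86, -2.45 and -1.38. The rrp6 median against WT was also -0.37 over 38 families without rrp6 replicate 1 and -1.60 over 37 without rrp6 replicate 2.

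**Figure D3:**
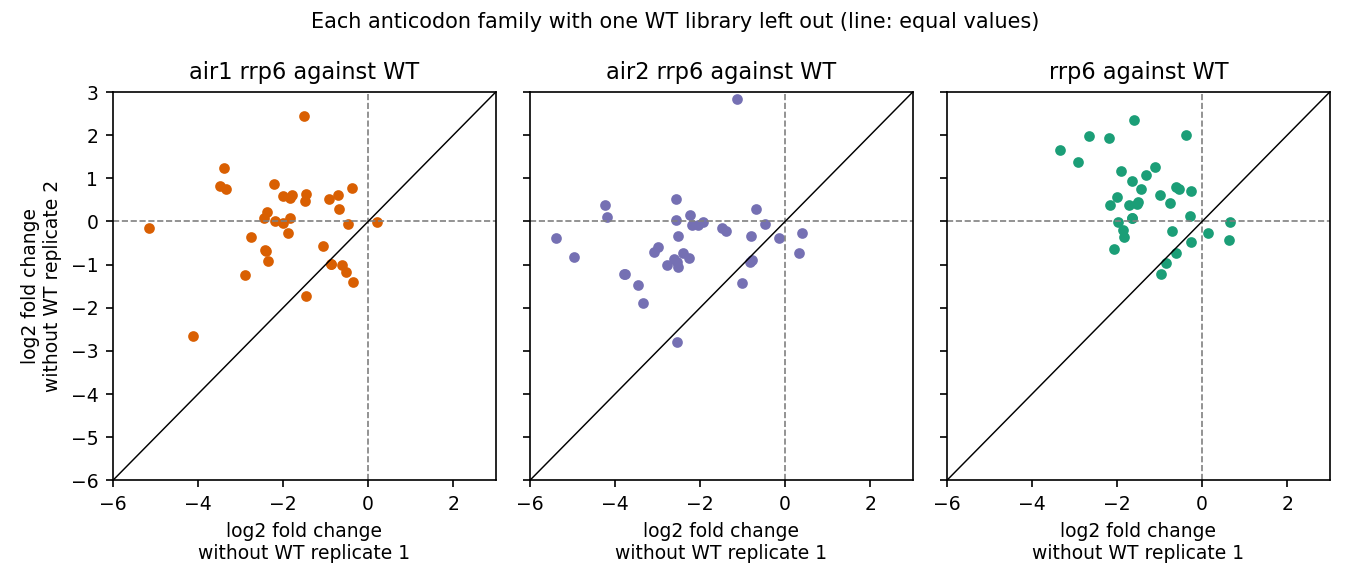
Log2 fold change of each anticodon family against WT with WT replicate 1 left out (x axis) and with WT replicate 2 left out (y axis), for air1 rrp6, air2 rrp6 and rrp6; the line marks equal values. Most families lie above the line, and the rrp6 median moves between -1.38 without WT replicate 1 and 0.41 without WT replicate 2.

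With the rDNA share of each library as a covariate, the medians against WT were -0.23 in air1 rrp6, -0.30 in air2 rrp6 and 0.13 in rrp6. No family was called by edgeR in any of the 3, where 14, 13 and 23 of 7498 features were called lower and 128, 80 and 308 higher. At an unadjusted p under 0.05, 0, 1 and 0 families were lower and 0, 1 and 3 higher. In either direction, 1097, 1101 and 1349 of the 7498 features were under that threshold. Scaling by library totals put the medians at -0.30, -0.52 and 0.02, while the median of all features shifted to 0.78, 0.95 and 0.65.

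Between the mutant strains no tRNA family was called, and the difference from rrp6 depended on rrp6 replicate 2. In air1 rrp6 against rrp6 the median log2 fold change was -0.52 with 31 of 36 families negative, and DESeq2 called 0. Without rrp6 replicate 2 it was 0.03 with 18 of 37 negative, and without rrp6 replicate 1 it was -0.96. It was -0.98 without air1 rrp6 replicate 1 and -0.34 with the rDNA covariate. Of all features 0.0667% were called lower and 0% higher. No family, lower or higher, had an unadjusted p under 0.05 (0 of 36), where 2.11% of all features were lower and 3.68% higher.

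In air2 rrp6 against rrp6 the median was -0.92 with 33 of 36 families negative, beside 0.0133% of features called lower and 0% higher. At an unadjusted p under 0.05, 3 families were lower and 0 higher, where 1.73% of all features were lower and 0.987% higher. Without rrp6 replicate 2 the median was -0.09, with 20 of 37 negative and 0 at an unadjusted p under 0.05. It was -1.47 without rrp6 replicate 1, with 11 families lower at that threshold, -1.44 without air2 rrp6 replicate 1 and -0.32 with the rDNA covariate. DESeq2 called 0 families there. Both air2 rrp6 libraries were below both rrp6 libraries in 12 families, 33.3% of those tested and 13.2% of all features. F(GAA) and G(GCC) were among them, with log2 fold changes of -1.56 (SE 0.53) and -1.57 (SE 0.56), each with an edgeR adjusted p of 1.0.

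The direct comparison of air1 rrp6 with air2 rrp6 had a median log2 fold change of 0.33, with 26 of 36 families higher in air1 rrp6 and 10 lower. No family passed the threshold with edgeR, and DESeq2 called 0. Of all features, 0.0133% were called higher and 0.0667% lower. The families under an unadjusted p of 0.05 were 0 higher and 0 lower, where 2.19% of all features were higher and 1.95% lower. The median was 0.60 without air2 rrp6 replicate 1, 0.55 without air1 rrp6 replicate 2 and -0.02 with the rDNA covariate, which left 20 families negative. G(GCC) had 0.752 and 0.630 CPM in air1 rrp6 against 0.370 and 0.282 in air2 rrp6, a log2 fold change of 1.05 (SE 0.58, edgeR adjusted p = 0.99). Both air1 rrp6 libraries were above both air2 rrp6 libraries in 14 families, 38.9% of those tested, beside 18.7% of all features. W(UCA), the mitochondrial tryptophan tRNA, was the only family below in both, with 0.694 and 0.336 CPM in air1 rrp6 against 0.898 and 1.05 in air2 rrp6.

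**Figure D4:**
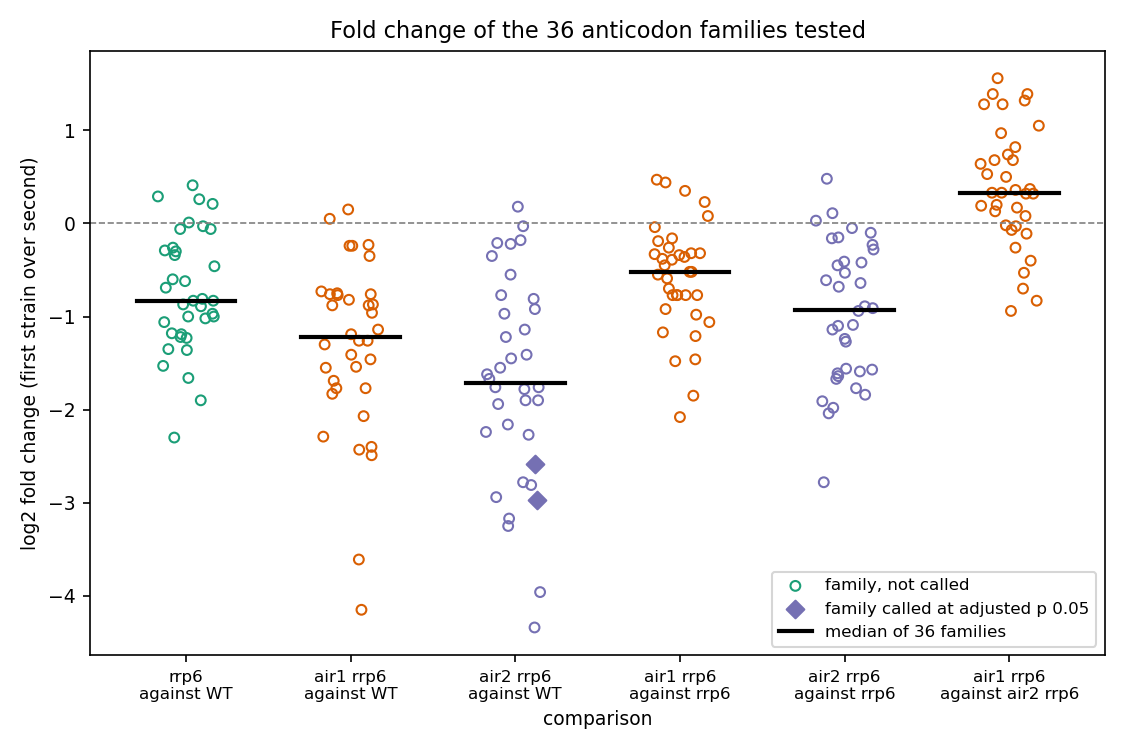
Log2 fold change of the 36 anticodon families tested, in each of the 6 comparisons, first strain over second; open circles are families that did not pass, filled diamonds are G(GCC) and V(AAC) at an adjusted p under 0.05, and bars are medians. The medians are -0.83, -1.22, -1.72, -0.52, -0.92 and 0.33 from left to right.

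No amino acid group passed the threshold with edgeR in any of the 6 comparisons. At an unadjusted p under 0.05, 6 groups were lower in air1 rrp6 against WT, 9 in air2 rrp6 against WT and 3 in air2 rrp6 against rrp6. In either direction, 1499, 1681 and 205 of the 7480 features were under that threshold in these comparisons. Features that were lower were counted only with the families in place of the groups, at 363, 466 and 130 of 7498. DESeq2 called 1 group in air1 rrp6 against WT, cysteine, and 2 in air2 rrp6 against WT, phenylalanine and isoleucine. It called 98 and 199 of the 7480 features lower in these 2 comparisons. DESeq2 called 0 groups lower in the other 4 comparisons. In the table of amino acid sums edgeR called 7.77% of features higher and 0.762% lower in air1 rrp6 against WT, 8.89% higher and 1.58% lower in air2 rrp6 against WT, and 9.04% higher and 1.38% lower in rrp6 against WT. It called 0% higher and 0.0668% lower in air1 rrp6 against rrp6, 0% higher and 0.0134% lower in air2 rrp6 against rrp6, and 0.0134% higher and 0.0668% lower in air1 rrp6 against air2 rrp6.

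Families whose genes hold an intron, which yeast cells remove by tRNA splicing, were set beside the others. The 9 tested had a median log2 fold change against WT of -1.77 in air1 rrp6, -1.94 in air2 rrp6 and -0.81 in rrp6. The 23 other tested families with nuclear members, without an intron, had medians of -0.96, -1.55 and -0.87. Both sets sum mitochondrial copies where a family has them, so they do not set nuclear tRNA alone side by side. The mitochondrial gene held 35.6% of Y(GUA) in the intron set. Among the others it held 80.7% of C(GCA), 72.6% of V(UAC) and 67.4% of D(GUC). All 9 intron families were negative in each of these comparisons, as were 21, 23 and 20 of the 23 others. These signs depended on WT replicate 2. Without it, P(UGG), W(CCA) and S(GCU) were at 0.82, 0.09 and 0.01 in air1 rrp6 against WT. The other intron families were then between -0.68 and -0.05 in that comparison. Against rrp6, all 9 were negative in air1 rrp6 and in air2 rrp6, beside 18 and 20 of the 23. These signs also depended on the setting. Over the alternatives P(UGG), W(CCA) and I(UAU) reached 2.01, 0.27 and 0.03 in air1 rrp6 against rrp6. The highest values of the other intron families there were between -0.79 and -0.02. Without rrp6 replicate 2, 20 of 37 families of any kind were negative in air2 rrp6 against rrp6. L(CAA), a leucine family with introns, had the lowest log2 fold change, -4.34 (SE 1.50, edgeR adjusted p = 0.14) in air2 rrp6 against WT, and it was -0.38 without WT replicate 2. Its levels were 0.984 and 0.504 CPM in air1 rrp6, 0.423 and 0.887 in air2 rrp6, 0.807 and 4.55 in rrp6, and 0.805 and 24.3 in WT.

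Methionine tRNA was split into initiator and elongator genes, whose sequences differ. The 5 initiator genes had 4 and 12 counts in air1 rrp6, 1 and 2 in air2 rrp6, 1 and 6 in rrp6, and 2 and 35 in WT, or 63 in all. The 5 elongator genes had 5 and 5 counts in air1 rrp6, 4 and 6 in air2 rrp6, 22 and 4 in rrp6, and 0 and 18 in WT, or 64 in all. These counts are too low to compare the strains at this depth. The M(CAU) family, with its mitochondrial copy, had a log2 fold change of -0.23 (SE 0.53) in air1 rrp6, -0.97 (SE 0.54) in air2 rrp6 and -0.06 (SE 0.52) in rrp6 against WT.

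Mitochondrial tRNA, transcribed inside the organelle, carried a large part of several families. Of the 40 families 14 summed nuclear and mitochondrial members and 6 had mitochondrial members alone. The mitochondrial D(GUC) gene held 67.4% of its family, with 12.6 and 6.0 CPM in air1 rrp6, 15.5 and 5.65 in air2 rrp6, 10.1 and 15.9 in rrp6, and 2.74 and 10.9 in WT. The nuclear D(GUC) genes had 4.98 and 2.35 CPM in air1 rrp6, 4.07 and 0.807 in air2 rrp6, 4.96 and 4.21 in rrp6, and 7.81 and 8.66 in WT. Each WT library thus had more nuclear D(GUC) than any other library, and the mitochondrial gene had no such order.

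The mitochondrial gene also held 72.6% of V(UAC) and 80.7% of C(GCA). The 4 mitochondrial families tested, K(UUU), W(UCA), I(GAU) and R(UCU), had median log2 fold changes against WT of -0.75 in air1 rrp6, -0.85 in air2 rrp6 and 0.11 in rrp6, and none passed the threshold. As a share of the counts outside rDNA and mitochondrial features, mitochondrial tRNA averaged 0.00718% ± 0.0010 in air1 rrp6, 0.00789% ± 0.0041 in air2 rrp6, 0.00988% ± 0.0043 in rrp6 and 0.00843% ± 0.0034 in WT (SD, n = 2 each). Those means differ by less than the SD of the air2 rrp6, rrp6 or WT duplicates.

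**Figure D5:**
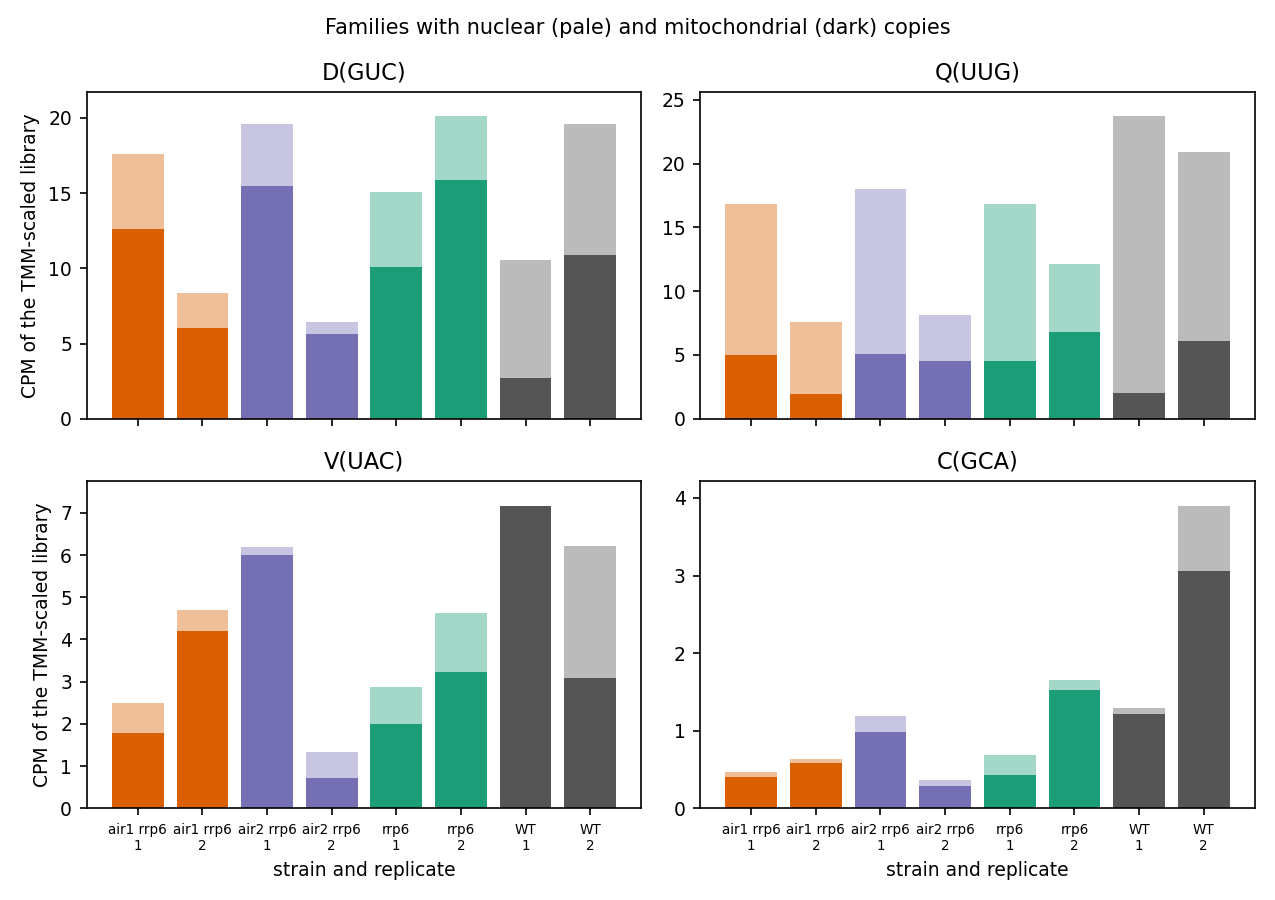
Level of the mitochondrial (dark) and nuclear (pale) genes of D(GUC), Q(UUG), V(UAC) and C(GCA) in each library, stacked, in CPM of the TMM-scaled library. The mitochondrial gene makes up most of D(GUC), V(UAC) and C(GCA) over the 8 libraries, and nuclear genes make up most of Q(UUG).

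Copies of a family could be told apart only in part. Whole numbers, within 0.05, made up 22.2% of the values of the copies and 82.5% of the family sums, so reads that match several copies were divided among them. Of 875 pairs of nuclear copies with the same mature sequence, 87.5% had totals within 5% of each other, against 41.1% of 95 pairs in a family with different sequences. All 16 G(GCC) rows had the same value in every library. The copies of E(UUC) stood in near whole-number proportions: with the typical copy set at 3 parts, tE(UUC)M had 3 and 4 parts in air1 rrp6, 3 and 5 in air2 rrp6, 7 and 9 in rrp6, and 5 and 22 in WT, each within 0.03 of a whole number. tE(UUC)G2, whose mature sequence equals that of tE(UUC)B, had 3 parts in every air1 rrp6 and air2 rrp6 library. It had 4 and 5 parts in rrp6, and 3 and 10 in WT. The rule behind that division is not stated in the labels or file headers, and these values are not counts of reads from that gene.

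On that deposited division tE(UUC)M, the copy with the unpaired position 67, held 7.13 and 9.30% of nuclear E(UUC) in air1 rrp6, 7.13 and 11.4% in air2 rrp6, 14.9 and 18.0% in rrp6, and 11.4 and 32.3% in WT. Both rrp6 libraries were above all 4 libraries of air1 rrp6 and air2 rrp6, and WT replicate 2 was above both rrp6 libraries. The parts of tE(UUC)G2, which lacks the unpaired position, had this same order. Whether the unpaired position has a part in the order was not tested. tQ(UUG)B, whose sequence sets it apart from its family, had 6.48 and 3.18 CPM in air1 rrp6, 7.97 and 1.41 in air2 rrp6, 9.55 and 1.95 in rrp6, and 14.2 and 10.1 in WT. Both WT libraries were above every other library for this gene. SUF3, listed as tG(CCC)D, held 98.3% of the G(CCC) counts.

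Of the 56 tRNA rows under the minimum, 11 belonged to R(UCU) with 56.0 counts summed, 7 to nuclear K(UUU) with 65.0, and the rest mainly to alanine and threonine families. The rows nearest the limit were tT(CGU)K with 12.0 counts inside it and the K(UUU) genes with 9.73 counts each outside it.

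The genes that make, process and use tRNA were read from the same tests. Of the 19 measured genes of RNA polymerase III and its factors, 15 of tRNA end processing, 12 of splicing and export, and 21 aminoacyl-tRNA synthetases, 0 passed the threshold in any comparison with edgeR. DESeq2 called 1 of them, GRS1, the glycyl-tRNA synthetase, in air2 rrp6 against WT and in rrp6 against WT. Of all 7498 features, DESeq2 called 772 higher and 204 lower in the former and 784 higher and 170 lower in the latter. In rrp6, air1 rrp6 and air2 rrp6 against WT, edgeR called 8.95, 7.71 and 8.87% of features higher and 1.35, 0.760 and 1.59% lower. At an unadjusted p under 0.05, these lists had 1, 1, 3 and 2 genes in rrp6 against WT, 1, 0, 2 and 3 in air1 rrp6 against WT, and 1, 0, 1 and 2 in air2 rrp6 against WT. Over all 7498 features, 1764, 1496 and 1683 were under that threshold in the same 3 comparisons. Their median log2 fold changes against WT lay between -0.36 and -0.04. Of the 12 surveillance genes, only the disrupted RRP6, AIR1 and AIR2 were called.

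Among 37 genes of tRNA modification, TAD2 was the only call, in air2 rrp6 against WT, where edgeR called 8.87% of all features higher. TAD2 encodes a subunit of the deaminase that turns the first anticodon base of some tRNAs, adenosine, into inosine. It had 11.1 and 9.48 CPM in air2 rrp6 against 4.27 and 4.36 in WT, a log2 fold change of 1.26 (SE 0.25, edgeR adjusted p = 0.011). The adjusted p ran up to 0.091 over the alternatives, and the call was lost in 4 of them, with each WT library or air2 rrp6 replicate 1 left out and with the rDNA covariate. Other libraries had 8.33 and 7.72 CPM in air1 rrp6 and 6.34 and 8.24 in rrp6.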

How the data were processed

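Per the labels' protocols, RNA was bound to poly(U) sepharose and sequenced on SOLiD, with 2 libraries per strain. The authors deposited expected counts per feature and library, not scaled for depth, and named Bowtie 0.12.7, SAMtools and edgeR 2.2.5, per the submitters' processing notes. Neither the labels nor the file headers state the authors' genome build or their rule for reads with several matches. From the other table the authors deposited, only its annotation column was used, which pairs identifiers with symbols and holds no score or other measured value. No column of counts was left out.

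Members and gene lists were chosen with earlier results of these data known. Named families were those past the threshold, the 6 of highest mean CPM and M(CAU), and for the gene lists up to 4 called members each. The other families and the copies named were chosen after their values were seen.

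Member rows were replaced by sums per anticodon, or per amino acid, in the whole table, and expected counts were rounded to whole numbers. In edgeR 4.0.16 (R 4.3.3) features were kept by filterByExpr with a minimum count of 10, scaled by TMM and fitted by a robust quasi-likelihood model to all 8 libraries with 1 mean per strain. Adjusted p-values are over all features of the table. The script was tested on simulated data with known fold changes. Alternatives were 11 other settings, DESeq2 1.42.0 among them, and each of the 8 libraries left out. Shares of counts and values of copies got no test.

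Depth was 2777 to 77864 tRNA counts per library, and the chi-square of duplicates over families was 8.87 to 73.0 per degree of freedom, above counting error in every strain. Strains share replicate numbers, and same-numbered libraries deviated together from their strain means, with correlations across features of 0.16 to 0.39 in the 6 pairs of strains. Across the 36 tRNA families the correlation ran from 0 for air1 rrp6 and WT to 0.65 for rrp6 and WT. The labels do not say that the numbers mark a batch, so the fit without the replicate block is the one reported, and the blocked count stands beside it where it differs.

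RefSeq sequences (build R64) were found for 236 members, and 159 members matched 1 gene by identifier, by symbol or as the only gene of that anticodon on its chromosome. The remaining members have no coordinates here.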

Additional observations from a re-analysis of the deposited data

How the results depend on the processing

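Of 36 families in the main fit, the number called in air1 rrp6 against WT was 0. It became 2 with DESeq2, 1 with library totals in place of TMM and 2 with the replicate block. Features called lower there were 99, 13 and 142 of 7498. In air2 rrp6 against WT the number of families was 2. It became 8 with DESeq2, 0 with the rDNA share as a covariate and 7 with the replicate block, beside 204, 13 and 230 of 7498 features lower. With the 2 strains fitted alone it was 1 of 33 families, beside 104 of 7240 features lower. It was 3 with DESeq2 size factors in edgeR and with library totals, beside 125 and 19 of 7498 features lower. With no filter on low counts it was 3 of 40, beside 124 of 8613 features lower. Amino acid groups in air1 rrp6 against WT became 1 with DESeq2 and 1 with library totals, beside 98 and 13 of 7480 features lower. In air2 rrp6 against WT these groups became 1 with DESeq2 size factors in edgeR, 2 with DESeq2 and 2 with library totals, beside 123, 199 and 18 features lower. They became 1 with no filter on low counts and 1 with no minimum of 10 counts, where 20 groups were tested, beside 124 and 119 features lower. With the replicate block they became 1, beside 224 features lower. The cause was not tested. The block changed no other count of calls. With all counts as the denominator, the mean tRNA share was 0.0283% in air1 rrp6, 0.0274% in air2 rrp6, 0.0386% in rrp6 and 0.0395% in WT.

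With each library left out in turn, called families ran between 0 and 9 in air1 rrp6 against WT, between 0 and 13 in air2 rrp6 against WT and between 0 and 2 in rrp6 against WT, each highest without WT replicate 1. Amino acid groups ran between 0 and 8, 0 and 7, and 0 and 1 in the same comparisons. The highest counts of families and of groups rest on 1 WT library, so only effect sizes are set beside all features. Without WT replicate 1 the median log2 fold changes of the families were -1.86, -2.45 and -1.38 in these comparisons. Those of the groups were -1.70, -2.05 and -1.37. The medians over all features were -0.02, -0.06 and -0.04. Shares with a library left out ran between 0.0396 and 0.138% in air1 rrp6, 0.0539 and 0.0778% in air2 rrp6, 0.0639 and 0.175% in rrp6, and 0.0578 and 0.361% in WT. Single fold changes were tallied only for the families past the threshold, those of highest mean CPM, M(CAU) and the called list genes. The other tested families and list genes were not in this tally. Of its values under an alternative, 1110 kept their direction and side of the threshold, or moved by no more than their spread. Another 81 moved, 17 lost a call and 8 gained a call. No called value changed sign. Outside WT replicate 2, G(GCC) had 7 to 33 counts per library, V(AAC) 7 to 46 and M(CAU) 7 to 39, which limit what these libraries can show.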
